A study of Homo sapiens with 53 samples.

Results

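The regions described here are the genes of 8 subunits of the NuRD complex, namely MBD3, MBD2, CHD4, HDAC1, HDAC2, MTA1, MTA2 and GATAD2B, and the chromatin immunoprecipitation peaks that fell in them. The members were chosen by name and by position, not by a measured value. Each gene was taken at its hg19 coordinates with 5 kb added on each side, and the 8 windows covered 458 kb. They held 313 of the 706206 peaks in 10 deposited lists, 1 list per target and treatment. The lists come from HEK293T cells, an established human embryonic kidney line. Cells were kept for 72 h in DMSO, the solvent, or in 30 µM BPK-25, a small molecule. CTCF and MBD3 were precipitated from the parental cells with antibodies to the proteins themselves. TET1, TET2 and TET3 were precipitated with an anti-Flag antibody from 3 derived lines, each with 1 Flag-tagged TET protein; the labels do not say whether a line is 1 clone. The labels list 53 samples in 18 groups, with 3 replicates per immunoprecipitate group except TET2 under DMSO, which has 2. The list of that group is nevertheless named for 3 replicates. As each immunoprecipitate group has 1 pooled list, differences between treatments have no replicate check and no test, and all intervals given cover counting error only.

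NuRD joins an ATP-dependent nucleosome remodeller to histone deacetylases in 1 complex. CHD4 is the remodelling ATPase, and HDAC1 and HDAC2 remove acetyl groups from histones. MTA1 and MTA2 form the scaffold that holds the deacetylases, and GATAD2B, also called p66β, bridges the deacetylase module and the remodeller. MBD2 and MBD3 carry methyl-CpG-binding domains and occur in separate forms of the complex. MBD2 binds methylated CpG, while mammalian MBD3 has little preference for it. CTCF is the zinc-finger protein of insulators and loop anchors, and the TET proteins oxidise 5-methylcytosine. BPK-25 has been described elsewhere as lowering NuRD proteins in cells; the lists hold no protein or RNA levels, so none can be given for these genes.

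In DMSO all 8 genes carried both a CTCF and an MBD3 peak within 1000 bp of the gene start, and in BPK-25 7 of 8 did, MBD2 being the one without. For background, 7.43% of all positions on the autosomes and chromosome X lay within 1000 bp of a CTCF peak in DMSO and 14.5% in BPK-25, and for MBD3 5.68% and 14.3% did. The 8 starts were not compared with those of other genes, as no hg19 annotation was used. The sequences before 3 of these starts are shown because they mark the range seen in the peak lists: MBD2 had no peak of any target in BPK-25, HDAC2 had the highest CTCF and MBD3 promoter values in DMSO, and MTA1 had the highest promoter pileups in BPK-25. They are the 250 bases before the RefSeq start on GRCh38.p14, written 5′ to 3′ on the gene's strand, with CpG dinucleotides in capitals. MBD2 is chr18:54224670-54224919 on the minus strand, HDAC2 is chr6:113971149-113971398 on the minus strand and MTA1 is chr14:105419577-105419826 on the plus strand. The peaks are in hg19, so peaks and sequences were not matched base to base.
MBD2: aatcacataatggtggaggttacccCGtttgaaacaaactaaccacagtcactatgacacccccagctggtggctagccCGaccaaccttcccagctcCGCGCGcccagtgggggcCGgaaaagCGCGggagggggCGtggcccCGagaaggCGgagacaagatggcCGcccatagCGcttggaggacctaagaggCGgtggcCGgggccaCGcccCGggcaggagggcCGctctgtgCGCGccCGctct
HDAC2: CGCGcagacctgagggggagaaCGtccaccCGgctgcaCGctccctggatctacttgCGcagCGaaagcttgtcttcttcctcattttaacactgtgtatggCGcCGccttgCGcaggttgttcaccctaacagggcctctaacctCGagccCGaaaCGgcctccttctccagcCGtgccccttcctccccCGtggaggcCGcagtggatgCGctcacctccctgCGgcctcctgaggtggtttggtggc
MTA1: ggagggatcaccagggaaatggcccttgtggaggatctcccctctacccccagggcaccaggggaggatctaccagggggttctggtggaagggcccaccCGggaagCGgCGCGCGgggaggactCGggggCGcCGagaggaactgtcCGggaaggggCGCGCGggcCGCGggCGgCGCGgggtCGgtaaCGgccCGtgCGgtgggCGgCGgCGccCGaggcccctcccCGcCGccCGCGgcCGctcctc
These stretches hold 21, 18 and 30 CpG. Over the 300 bases from 250 before to 50 after the start, the 8 genes had 24 to 40 CpG in their 9 RefSeq entries (MTA2 has 2), against a median of 14 in 35116 promoters. CHD4 and HDAC2 were the lowest with 24 each and MBD3 the highest with 40, and these lie above 66.1% and 92.4% of all promoters. The long CTCF consensus motif, searched on both strands, was in 0 of the 9 entries and in 0.0655% of all promoters. Its 3′ part GGNGGCAG was found at CHD4 and HDAC2 and in 16.7% of all promoters. The letters AGGGGGC, part of the CTCF core and chosen after values were seen, were found at MBD3, MBD2, HDAC1 (3 matches) and HDAC2, and in 14.4% of all promoters.

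At the gene starts the lists can be set side by side by fold enrichment, the authors' ratio of fragment pileup to local background at the summit. The ratio was read as having the same small constant added to both terms, so it is not the plain quotient of the 2.

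Among the methyl-CpG-binding-domain genes, MBD2 (chr18:51680575-51751158) had a CTCF peak at chr18:51750997-51751391 with a fold enrichment of 19.2 in DMSO, from 89 fragments. An MBD3 peak with a fold of 5.46, from 22 fragments, overlapped it. Neither was called in BPK-25, and the second CTCF peak of the window, 1405 bp into the gene with a fold of 6.62, was not either. MBD2 was the only one of the 8 windows with 0 peaks of all 5 targets in BPK-25. At the MBD3 gene itself (chr19:1576670-1592760) the CTCF values went in both directions. The strongest CTCF promoter peak had a fold of 2.80 in DMSO, from 17 fragments, and 6.92 in BPK-25, from 28 fragments. The strongest CTCF peak of the gene in DMSO, chr19:1590706-1591620, lay just past the promoter, 1903 bp into the gene, with 166 fragments and a fold of 19.7, and the BPK-25 peak that overlapped it had 27 fragments and a fold of 6.36, at a summit 684 bp away. The MBD3 protein was enriched at its own gene start in both treatments. Its summit 442 bp into the gene had a fold of 7.75 in DMSO and 4.04 at the matched summit in BPK-25, while at 286 bp before the start the values were 6.32 and 5.28.

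CHD4 (chr12:6679248-6716551) had nearly equal CTCF promoter values, with a fold of 4.61 in DMSO and 4.57 in BPK-25. For MBD3 the values at the same summit were 5.84 and 4.81. The deacetylase genes had higher values in DMSO than in BPK-25 for both proteins. At HDAC1 (chr1:32757708-32799224) the CTCF fold was 10.7 in DMSO and 4.10 in BPK-25, with summits 373 bp apart. The MBD3 fold there was 12.4 and 6.46. At HDAC2 (chr6:114257320-114292359) the CTCF fold was 40.4 in DMSO and 10.5 in BPK-25, and the MBD3 fold 19.6 and 12.4. The MBD3 peak at the HDAC2 start ranked in the top 0.880% of its list in DMSO and the top 0.618% in BPK-25, but in lists of 82358 and 243213 peaks, so these ranks show no change by themselves.

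The scaffold genes had higher folds in BPK-25. At MTA1 (chr14:105886186-105937057) the CTCF fold was 3.30 in DMSO and 5.22 in BPK-25, and the MBD3 fold 5.48 and 6.39, all with summits between 462 and 491 bp before the start. At MTA2 (chr11:62360675-62369312) the CTCF fold was 4.78 in DMSO and 13.9 in BPK-25, at summits 769 and 789 bp before the start. The MBD3 fold at MTA2 was 5.93 in DMSO and 11.0 in BPK-25 at summits 39 bp apart, 237 and 198 bp into the gene. It came from 38 and 44 fragments. The local background was lower in BPK-25 at both the CTCF and the MBD3 summit of MTA2, as given below. GATAD2B (chr1:153777203-153895451), the bridging subunit, resembled the deacetylase genes for CTCF, with a fold of 29.5 in DMSO and 4.27 in BPK-25 at summits 4 bp apart. Its MBD3 fold was nearly the same in both, at 5.93 and 5.70. CTCF promoter values were thus lower in BPK-25 at HDAC1, HDAC2 and GATAD2B and higher at MBD3, MTA1 and MTA2, with CHD4 near equal and MBD2 uncalled. HDAC1, HDAC2, GATAD2B and MBD2 had DMSO folds of 10.7 to 40.4, and the other starts 2.80 to 4.78. In the whole list, 9982 shared CTCF summits with a DMSO fold of 10 or more were mostly far lower in BPK-25. Their median ratio of pileup over genome background, described below, was 0.0524, with quartiles of 0.0328 and 0.181. A link with the subunit's role was not tested. Starts with more than 1 peak in a list had 21 further CTCF and MBD3 peaks over the 4 lists, with folds of 2.14 to 8.85.

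**Figure D1:**
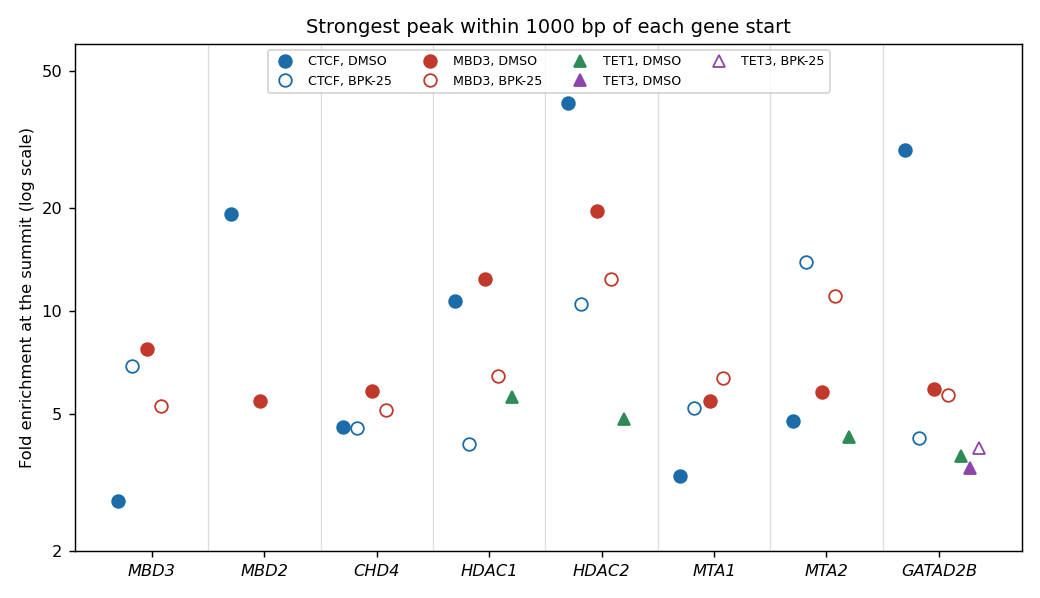
Fold enrichment (log scale) of the peak of highest -log10 q within 1000 bp of each gene start. CTCF, MBD3, TET1 and TET3 are shown in DMSO (filled) and BPK-25 (open), and a missing point means that no peak was called. The MBD3 points at CHD4 in BPK-25 (5.15) and at MTA2 in DMSO (5.80) are peaks other than those compared above. CTCF lies between 2.80 and 40.4 in DMSO and between 4.10 and 13.9 in BPK-25, and MBD2 has points in DMSO only.

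Over the whole windows, the BPK-25 lists held more CTCF and MBD3 peaks than the DMSO lists, for CTCF mainly among peaks of low -log10 q. Counting only peaks with a -log10 q of at least 10, the windows held 26 CTCF peaks in DMSO and 28 in BPK-25, while the whole lists held 80698 and 47630, and 20 and 40 MBD3 peaks, while the lists held 26242 and 50882. Without that limit the windows held 41 CTCF peaks in DMSO and 98 in BPK-25, which is 8.95 and 21.4 per 100 kb. The whole lists, with 99587 and 245419 peaks, gave 3.33 and 8.27 per 100 kb, so the windows were denser in peaks than the list by 2.69 times in DMSO and 2.59 times in BPK-25. For MBD3 the windows held 54 and 101 peaks, or 11.8 and 22.0 per 100 kb, against 2.77 and 8.20 in the lists. The DMSO density of MBD3 peaks was thus 4.25 times that of its list, and the BPK-25 density 2.69 times. One gene carried much of this: MTA1 held 39 of the 98 CTCF peaks and 42 of the 101 MBD3 peaks in BPK-25, and 23 of the 54 MBD3 peaks in DMSO. Without MTA1, the other 7 windows had 28 CTCF peaks in DMSO and 59 in BPK-25, and 31 and 59 MBD3 peaks, or 7.80 and 14.8 per 100 kb.

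Per length, MTA1 had 2.14 CTCF peaks per 10 kb in DMSO and 6.41 in BPK-25, and MBD3 3.78 and 6.90. The MBD3 gene came next in BPK-25, with 5.75 CTCF and 6.13 MBD3 peaks per 10 kb, against 1.15 and 3.83 in DMSO. MTA2 had 3.22 CTCF peaks per 10 kb in DMSO and 3.76 in BPK-25, the smallest relative change among the windows whose count differed upward. CHD4 went from 6 to 10 CTCF peaks and HDAC1 from 4 to 11. HDAC2 had 3 CTCF peaks in each treatment, and GATAD2B, the longest gene, had 4 and 13. Local background in the windows, which reflects the sonicated input, was 1.00 to 4.75 times the lowest level of its list. Its highest value was at the MTA1 promoter in BPK-25, where it reached 4.75 times for CTCF and 4.30 times for MBD3, against 2.11 and 1.96 in DMSO. Its part in the number of peaks at MTA1 was not tested.

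**Figure D2:**
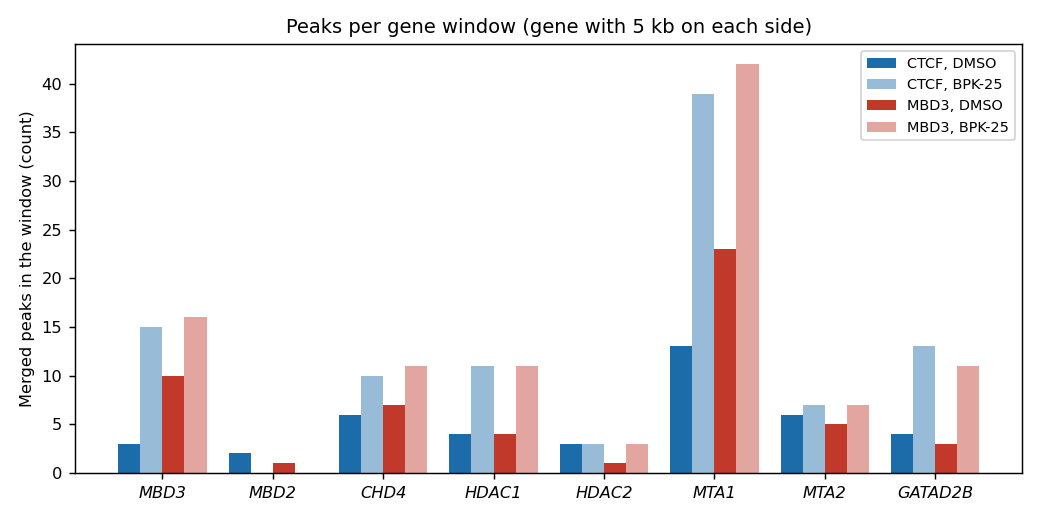
Number of merged peaks per gene window for CTCF and MBD3 in each treatment (bars, 1 pooled list each). MTA1 has the most in every list, up to 42, and MBD2 has 0 in BPK-25.

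DMSO peaks that shared at least 1 bp with a peak in the BPK-25 list of their target were counted as retained. For CTCF, 29 of 41 peaks were retained (70.7%, exact Clopper-Pearson 95% interval 54.5 to 83.9), against 39.2% of the whole list. For MBD3, 48 of 54 were retained (88.9%, 77.4 to 95.8), against 61.4%. Without MTA1 the shares were 17 of 28 for CTCF (60.7%, 40.6 to 78.5) and 25 of 31 for MBD3 (80.6%, 62.5 to 92.5). With both treatments held to a -log10 q of 10 or more, 34.6% of the CTCF window peaks were retained, against 16.8% of the list under that limit, and 70.0% of the MBD3 peaks, against 51.5%. All 3 CTCF peaks of the MBD3 gene were retained, 12 of 13 at MTA1, 4 of 6 at CHD4 and at MTA2, 3 of 4 at HDAC1, 2 of 3 at HDAC2, 1 of 4 at GATAD2B and 0 of 2 at MBD2. For MBD3 all 23 peaks of MTA1, 10 of the MBD3 gene and 5 of MTA2 were retained, 5 of 7 at CHD4, 3 of 4 at HDAC1, 1 of 1 at HDAC2, 1 of 3 at GATAD2B and 0 of 1 at MBD2. MTA1 also had the densest BPK-25 peaks, 6.41 CTCF and 6.90 MBD3 per 10 kb, and dense peaks make an overlap of 1 bp easier to reach. A CTCF peak there, chr14:105927409-105927585, counted as retained with the BPK-25 summit 1103 bp away. The part of peak density in the retained shares was not tested. MBD2 and GATAD2B kept the smallest shares for CTCF, but these rest on only 2 and 4 peaks.

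Retention was also counted by position within the gene. Of the 12 CTCF peaks at gene starts, 11 were retained, the exception being MBD2, against 9 of 18 in gene bodies and 8 of 10 downstream. For MBD3 the counts were 11 of 12 at starts, 25 of 28 in bodies and 11 of 12 downstream. Upstream of the promoter, 1 of 1 CTCF and 1 of 2 MBD3 peaks were retained. The whole lists were not split by position, as no hg19 annotation was used. These counts by position thus have no list share beside them and show no trait of these genes. CTCF peaks that overlapped an MBD3 peak in DMSO were retained in 24 of 27 cases (88.9%, 70.8 to 97.6), and those without MBD3 in 5 of 14 (35.7%, 12.8 to 64.9). Over the whole list the shares were 76.8% and 17.3%, so the windows showed the order that the list shows.

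The CTCF peaks that were not retained included strong ones. A peak in the body of HDAC1 at chr1:32781949-32782532, 24570 bp from the start, had 461 fragments and a fold of 81.3 in DMSO. A peak at the 3′ end of HDAC2, chr6:114257303-114257850, had 250 fragments and a fold of 53.6, and one in the body of CHD4, chr12:6691272-6691755, had 225 fragments and a fold of 21.3. None of these 3 overlapped a peak of any other list. GATAD2B had 3 more in its body, with folds of 24.6, 16.7 and 10.8. In DMSO 18 of the 41 CTCF window peaks had a fold of 10 or more, against 53.2% of the list. Of these 18, 10 were retained, where the list kept 34.7% of such peaks. Of the 23 weaker ones, 19 were retained, where the list kept 44.4%. The MBD3 peaks not retained were weak, and the one of highest -log10 q, at chr1:153853559-153853742 in GATAD2B, had a fold of 4.16, followed by the peak at the MBD2 start and one past the 3′ end of CHD4 with a fold of 2.91.

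**Figure D3:**
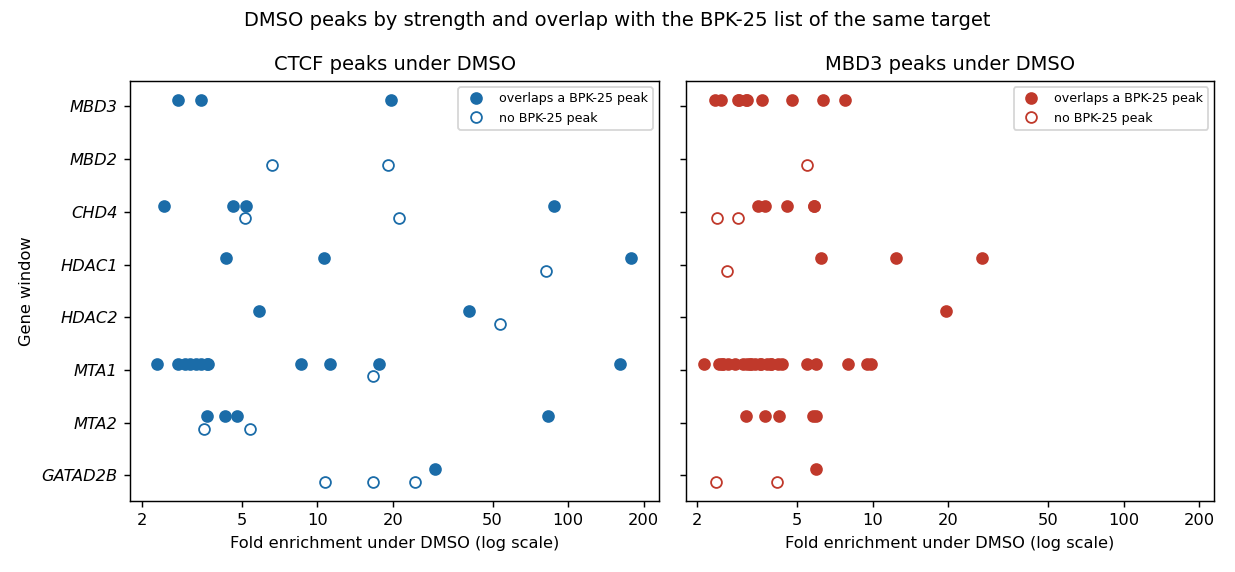
Fold enrichment in DMSO (log scale) of each CTCF peak (left) and MBD3 peak (right) in the 8 gene windows; filled points have a peak of their own target in BPK-25 at the same place and open points do not. Open CTCF points reach 81.3, whereas open MBD3 points stay at 5.46 or below.

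The strongest CTCF sites of the windows kept a peak in BPK-25 but at a far lower pileup. To set lists of unequal depth side by side, the pileup at a summit was divided by the list's genome background, 3.68 fragments for CTCF in DMSO and 2.58 in BPK-25. The site in the body of MTA1, chr14:105914358-105916336, had 1507 fragments in DMSO and 43 in BPK-25, or 409 and 16.7 times the genome background. Its ratio of BPK-25 to DMSO was 0.0408 (exact counting interval 0.0294 to 0.0552). A site 1679 bp past the end of HDAC1, on the side of the neighbouring gene MARCKSL1, at chr1:32800117-32801295, had 1157 and 32 fragments, a ratio of 0.0395 (0.0269 to 0.0561). At the 3′ end of CHD4, chr12:6679136-6679853, 1043 and 31 fragments gave 0.0425 (0.0287 to 0.0606). At chr11:62361007-62361528 in MTA2, 933 fragments stood against 26, at summits 168 bp apart. In the whole list, 6101 shared CTCF summits with a DMSO fold of 50 or more had a median ratio of 0.0354, with quartiles of 0.0281 and 0.0474. The 3 ratios at MTA1, HDAC1 and CHD4 lay between these quartiles. They cover 3 of the 6 window peaks with such a fold, as the MTA2 summits were too far apart and the other 2, in HDAC1 and HDAC2, had no BPK-25 peak. At the GATAD2B start, with 207 and 20 fragments, the ratio was 0.138 (0.0826 to 0.219).

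Weaker CTCF sites were not uniformly lower. Of 13 CTCF window summits that matched a BPK-25 summit within 100 bp, 6 were lower and 7 higher in BPK-25 relative to genome background. These are only part of the 41 DMSO peaks. Of the others, 12 had no BPK-25 peak and the rest had their summits farther apart, so this split leaves them out. In the whole list 65.9% of matched summits were lower. The medians at the 13 summits were 12.0 in DMSO and 12.8 in BPK-25, against 17.1 and 10.1 in the list. A site in the body of the MBD3 gene, chr19:1584959-1585182, had 19 fragments in DMSO and 48 in BPK-25, a ratio of 3.61 (2.08 to 6.50). The MTA1 start had 28 and 68 fragments, a ratio of 3.47 (2.20 to 5.60). The local background there was 2.11 and 4.75 times the genome level, so the fold over it was 3.30 and 5.22. The MTA2 start had 44 and 58 fragments, a ratio of 1.88 (1.25 to 2.85). The local background at MTA2 was 2.28 and 1.26 times the genome level, and the fold over it 4.78 and 13.9. A site past the 3′ end of CHD4, chr12:6677053-6677778, had 50 and 64, a ratio of 1.83 (1.24 to 2.70), and one past the 3′ end of MTA1, chr14:105938965-105939174, had 34 and 40, a ratio of 1.68 (1.04 to 2.74). These 5 intervals lie above 1 for counting error alone. How far they lie within the spread between replicates was not tested.

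For MBD3, 30 of the 54 window summits matched, and 12 of these were lower and 18 higher in BPK-25. In the whole list 43.9% of matched summits were lower. Of the other window peaks, 6 had no BPK-25 peak and the rest had their summits farther apart. The medians of the matched window summits were 9.65 in DMSO and 11.7 in BPK-25, close to the 8.72 and 10.5 of the list. The strongest MBD3 site in DMSO was the CTCF site past the end of HDAC1, where 157 fragments stood against 22, a ratio of 0.175 (0.107 to 0.275). The highest BPK-25 summit of that window lay 585 bp away, with 41 fragments. At the HDAC1 start 84 and 32 fragments gave 0.477 (0.307 to 0.724), and at the HDAC2 start 118 and 55 gave 0.583 (0.416 to 0.810). At the MTA1 start 39 and 76 gave 2.44 (1.64 to 3.69), with a local background of 1.96 and 4.30 times the genome level and a fold over it of 5.48 and 6.39. The DMSO peaks of highest -log10 q at 3 other windows were called in both treatments. Past the 3′ end of MTA1, toward CRIP2, chr14:105939901-105940883 had 55 fragments and a fold of 9.86 in DMSO. The BPK-25 peak over it had 40 and 4.81. Past the 3′ end of CHD4, toward NOP2, chr12:6677006-6677895 had 61 and 5.85 in DMSO and 55 and 8.42 in BPK-25. Both lie in the added flank, outside the gene. Before the MTA2 start, chr11:62369953-62370662 had 45 fragments and a fold of 5.80, and the BPK-25 peak over it, with its summit 994 bp away, 44 and 11.0. In the list, 3495 shared MBD3 summits with a DMSO fold of 10 or more had a median ratio of 0.519, with quartiles of 0.394 and 0.665. The starts of both deacetylase genes fell within these quartiles, and the site past HDAC1 lay below them.

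**Figure D4:**
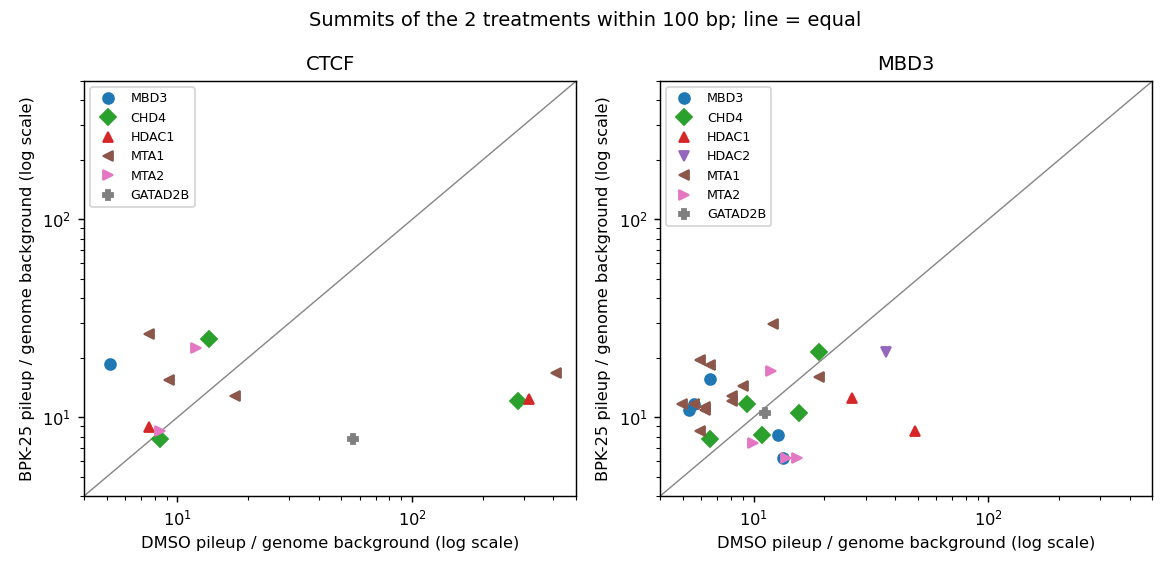
Pileup divided by genome background in DMSO (x axis) and BPK-25 (y axis), both log scales, for the 13 CTCF (left) and 30 MBD3 (right) window summits found within 100 bp of each other; the line marks equal values. The 3 CTCF points farthest right, at MTA1, HDAC1 and CHD4, have 283 to 409 times the genome background in DMSO and 12.0 to 16.7 in BPK-25.

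Peaks seen in BPK-25 but not in DMSO made up 68 of 98 CTCF peaks, against 83.3% of the list, and 59 of 101 MBD3 peaks, against 78.2%. The 3 new CTCF peaks of highest -log10 q were all in the body of MTA1. The first, chr14:105932819-105933954, had 57 fragments and a fold of 10.4, and the others had folds of 6.40 and 7.02. All 3 overlapped MBD3 peaks of both treatments. The new MBD3 peak of highest -log10 q was in the body of the MBD3 gene, chr19:1584341-1585283, with 51 fragments and a fold of 10.4. It lay over the CTCF site with the ratio of 3.61 described above. The MBD3 list has no DMSO peak there, so its DMSO pileup at that site is not known. The next new MBD3 peaks, chr14:105930938-105931531 and chr14:105905398-105907527, were in the body of MTA1, with folds of 5.98 and 6.58. At the far end of GATAD2B, beyond its 3′ end on the side of SLC27A3, 5 CTCF and 5 MBD3 peaks of BPK-25 reached into the added 5 kb, where DMSO had 0.

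CTCF and MBD3 shared most of their peaks in BPK-25. In DMSO 27 of 41 CTCF window peaks overlapped an MBD3 peak (65.9%, 49.4 to 79.9), against 36.9% of the list. In BPK-25 78 of 98 did (79.6%, 70.3 to 87.1), against 69.0%. Seen from MBD3, 26 of 54 peaks overlapped a CTCF peak in DMSO (48.1%), against 43.3%, and 82 of 101 in BPK-25 (81.2%), against 69.1%. With a -log10 q of 10 or more in both lists the CTCF shares were 38.5% in DMSO, against 21.2% of the list, and 89.3% in BPK-25, against 70.7%. The lists of both proteins share the parental inputs of their treatment, and the part of this shared control in the overlap was not tested.

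**Figure D5:**
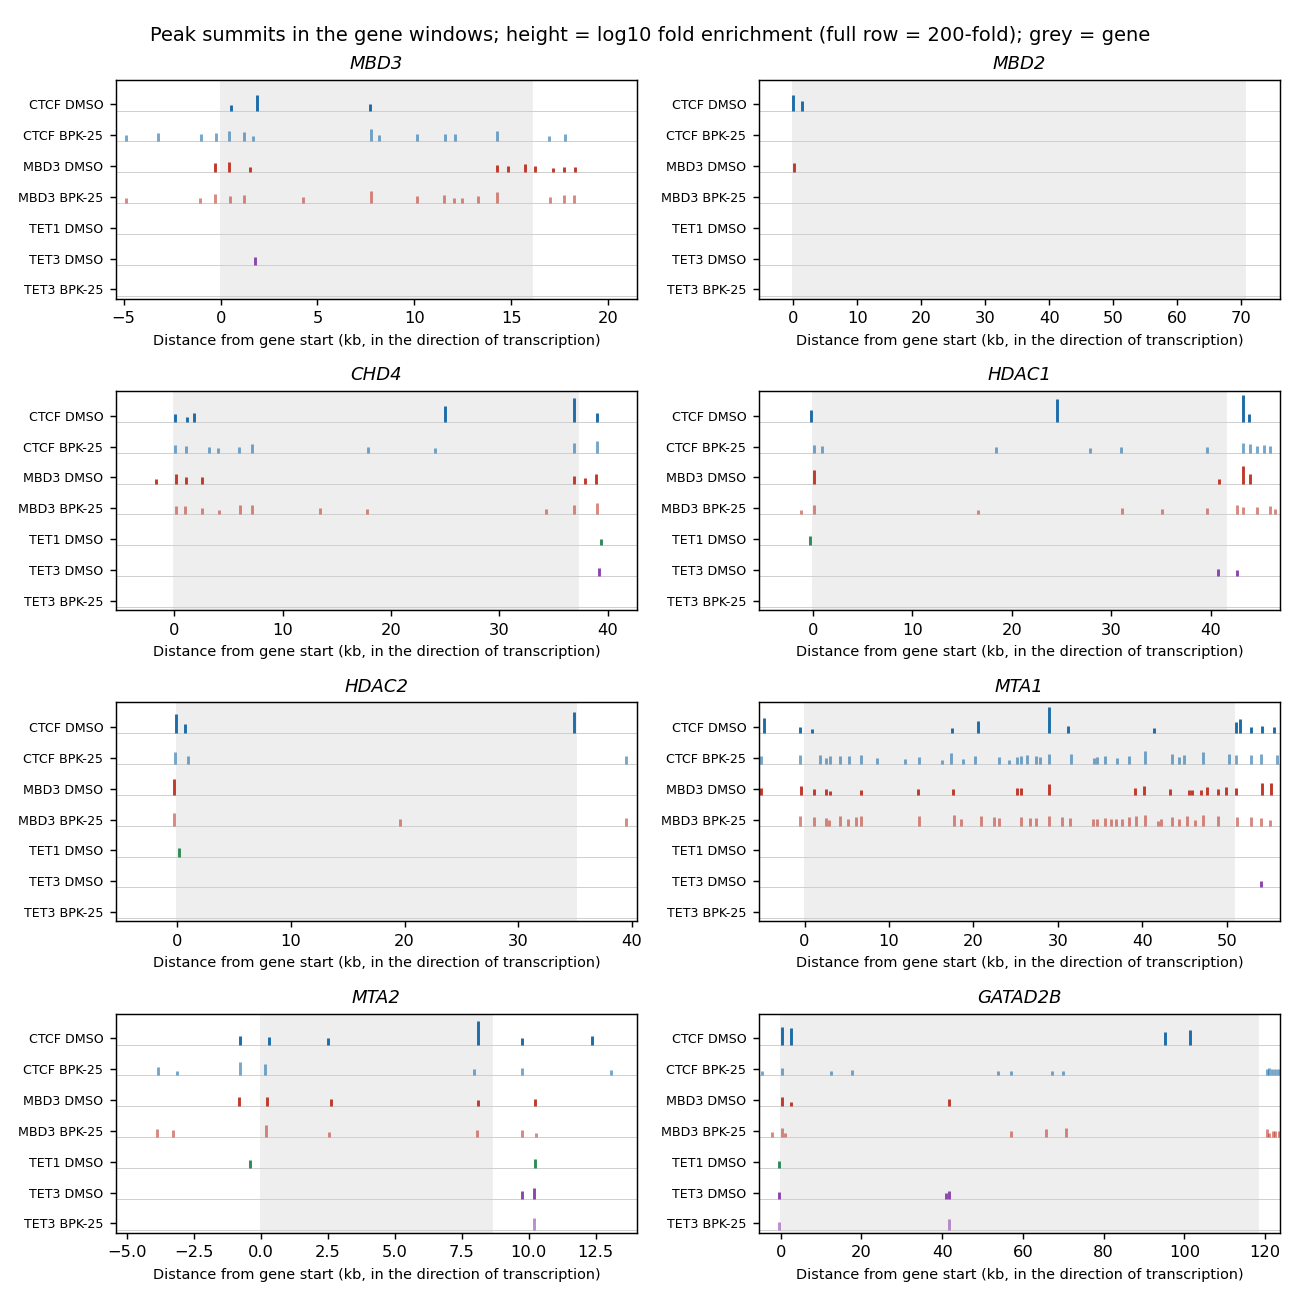
Summits of the peaks in each gene window by distance from the gene start in kb; the height of each mark is the log10 fold enrichment, a full row being 200-fold, and grey marks the gene. TET2, and TET1 in BPK-25, had 0 peaks and no row. Summits just beyond a window's edge are drawn, but the MBD3 summit 5957 bp past the end of MTA1 in BPK-25 is not. CTCF marks are closest together at MTA1 in BPK-25 (39 peaks), the tall DMSO marks of MTA1, CHD4 and HDAC1 (folds of 161, 87.6 and 178) have low ones below them in BPK-25, and MBD2 has none in BPK-25.

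TET peaks were few in these windows. TET1 had 6 peaks in DMSO and 0 in BPK-25, where its list has 447 peaks in all against 5951, and 4.59% of the list was retained. The starts of HDAC1, HDAC2, MTA2 and GATAD2B each had 1 TET1 peak in DMSO, with folds of 5.61, 4.84, 4.29 and 3.78. By position alone, 0.446% of the genome lay within 1000 bp of such a peak. The other 2 lay past the 3′ ends of MTA2 (fold 5.67) and CHD4 (fold 3.23). All 6 overlapped an MBD3 peak and 5 a CTCF peak of DMSO, where the list shares were 83.2% and 67.6%. The starts of MBD3, MBD2, CHD4 and MTA1 had no TET1 peak. TET2 had 0 peaks in the 8 windows in either treatment, with lists of 1233 and 509 peaks.

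TET3 had 10 peaks in DMSO and 3 in BPK-25, and 3 of the 10 were retained (30.0%, 6.67 to 65.2), against 31.9% of its list. Thus TET3 peak numbers in the windows were lower in BPK-25 while its whole lists, of 14129 and 13360 peaks, were of like size. With a -log10 q of 5 or more the windows held 2 TET3 peaks in each treatment, while the whole lists held 5404 in DMSO and 6897 in BPK-25. The strongest lay past the 3′ end of MTA2, toward TUT1, at chr11:62358856-62359246, with 30 fragments and a fold of 7.15 in DMSO and 26 fragments and 9.32 in BPK-25. A TET1 peak was called there in DMSO, and CTCF and MBD3 peaks in both treatments. The second was in the body of GATAD2B, chr1:153853499-153853781, with 32 and 19 fragments, a ratio to genome background of 0.612 (0.328 to 1.11). The fold there was 4.67 in DMSO and 7.14 in BPK-25, in the other direction, as the local background was 3.57 and 1.10 times the genome level. That is also the place of the MBD3 peak of GATAD2B that was not retained. The third was at the GATAD2B start, the only promoter of the 8 with a TET3 peak, with folds of 3.48 and 3.98. Positions within 1000 bp of a TET3 peak made up 1.03% of the genome in DMSO and 0.965% in BPK-25. The remaining DMSO peaks lay 1 each in the MBD3 gene and past the ends of CHD4 and MTA1, 2 at the 3′ end of HDAC1, and 1 each more at MTA2 and GATAD2B, with folds of 3.02 to 4.49.

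Grouped by which lists had a peak at the gene start, 3 patterns covered most members. MBD3, CHD4 and MTA1 had CTCF and MBD3 in both treatments and no TET protein. HDAC1, HDAC2 and MTA2 had the same with TET1 in DMSO, and GATAD2B had TET1 in DMSO and TET3 in both. MBD2 alone had CTCF and MBD3 in DMSO only. These patterns include weak calls. With a -log10 q of 10 or more, 6 starts had a CTCF peak in DMSO and 4 in BPK-25, with 2 genes, HDAC2 and MTA2, in both, and for MBD3 7 and 6 starts had one, with 6 in both. At 5 or more, TET1 in DMSO was left at 2 starts, HDAC1 and HDAC2, and TET3 at 0, and at 10 or more TET1 was left at 0.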

How the data were processed

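Chromatin immunoprecipitation with sequencing was measured in 29 immunoprecipitates and 24 inputs, and the analysis started from 10 deposited peak lists. The submitters' processing notes name MACS2 2.1.2, bedtools 2.25.0, SAMtools 1.9, Bowtie2 2.3.4, FastQC 0.11.7 and the build hg19, with no role or setting. The authors deposited, per summit, a fold enrichment (a ratio), -log10 p-values and -log10 q-values, and an offset from the interval's start. Overlapping or touching intervals were merged, keeping the summit of highest -log10 q. Pileup and local background were solved from the fold enrichment, read with the same small constant added to both its terms, and the Poisson -log10 p. Below a pileup of 200, 100% of the solved values came within 0.02 of a whole number, and each list's lowest local background served as its genome background (1.05 to 3.68 fragments). The lowest pileup called at that level was 8 to 11, which sets the precision; totals per library were not used here.

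Gene coordinates came with the choice of members, and strands, neighbours and promoter sequences from RefSeq, where all 8 symbols matched. The RefSeq genes on GRCh38.p14 are longer than the intervals used for MBD3 (19270 against 16091 bp), MBD2 (73064 against 70584) and HDAC2 (38121 against 35040), so starts or ends there may differ. Exons, introns and other NuRD genes were not analysed here. A promoter peak overlapped the 1000 bp on either side of the start. Upstream and downstream peaks lay outside the gene and the promoter. All coordinates are 1-based. Shares carry exact Clopper-Pearson 95% intervals, and ratios of pileups exact conditional binomial ones. The members, lists and rules were chosen with earlier results of these data known. The rule for named peaks took all promoter peaks, the DMSO peak of highest -log10 q of each gene for CTCF and MBD3, up to 3 peaks not retained and 3 new ones per protein, the TET1 and TET2 peaks and the strongest TET3 peak of each gene; promoter peaks beyond the strongest per start and list, and weaker TET3 peaks, are given as counts or ranges. Other peaks named, the matched summits and the ratios were chosen after their values were seen. As alternatives, -log10 q was held to 5 or 10, intervals within 500 bp were merged, the added 5 kb was dropped, 50% of the peak had to be covered, or promoters reached 500 or 2000 bp. Overlap and pileup steps were checked on simulated data. Python 3.11.15, pandas 2.3.3, numpy 2.4.6, scipy 1.17.1 and matplotlib 3.10.9 were used.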

Additional observations from a re-analysis of the deposited data

How the results depend on the processing

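Of 116 values recomputed under an alternative, 86 stayed within 1.5 times the main count or within the interval of the main share, and 30 moved. Most moves came from a stricter limit on -log10 q. At 5 or more the MBD3 peaks numbered 32 in DMSO and 64 in BPK-25, TET1 in DMSO 3 and TET3 in DMSO 2, the TET3 share retained was 100% (2 of 2), and 0 starts had a TET3 peak in DMSO or BPK-25. At 10 or more the CTCF peaks numbered 26 and 28 and the MBD3 peaks 20 and 40, with 1 TET1 and 1 TET3 peak in DMSO. Retained were then 34.6% of CTCF (9 of 26), 70.0% of MBD3 (14 of 20) and 100% of TET3 (1 of 1). The share of CTCF peaks with MBD3 was 38.5% in DMSO and 89.3% in BPK-25, 4 starts had a CTCF peak in BPK-25, and 0 had a TET3 peak in DMSO or BPK-25. Merging within 500 bp gave 63 CTCF and 60 MBD3 peaks in BPK-25. Without the added 5 kb the windows held 1 TET1 and 4 TET3 peaks in DMSO and 1 TET3 peak in BPK-25. With 2000 bp around the start, 2 genes had a TET3 peak in DMSO. Leaving out MTA1, chosen after seeing the data, gave 59 CTCF peaks in BPK-25 and 31 and 59 MBD3 peaks in DMSO and BPK-25. The cause of these moves was not tested, other than that a stricter limit or fewer genes leave fewer peaks. Requiring 50% of the peak covered and 500 bp around the start moved 0 values by this rule. With 50% covered the retained shares were still lower, at 61.0% for CTCF (25 of 41) and 77.8% for MBD3 (42 of 54). The shares of the whole lists under that setting were not computed. No paired analysis was possible because each target and treatment has 1 pooled list, and for the same reason no replicate could be left out. The genome background was lower in BPK-25 for each target, and a site just under the call limit in 1 list counts as not retained, so an absent peak is not a measure of absent binding.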
